A study of Mus musculus with 8 samples.

Results

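The 37 genes carried by mitochondrial DNA were described in epididymal ducts of mouse embryos. They are all the genes that the deposited table places on the mitochondrial chromosome (MT), out of 46517 genes in the table, and no expression value was used to choose them. They comprise 13 messenger RNAs (mRNAs), 2 ribosomal RNAs (rRNAs) and 22 transfer RNAs (tRNAs), and all 37 carry the mt- prefix of mitochondrially encoded genes. Of them, 22 had enough counts to be tested (13 mRNAs, 2 rRNAs and 7 tRNAs), and the other 15, all tRNAs, are given by their counts.

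Epididymal ducts, which form from the Wolffian ducts, were dissected at E18.5, late in gestation, and total RNA was sequenced in 8 libraries. The 4 control libraries (numbered 1, 3, 4 and 6) were Ptk7+/flox, and the 4 libraries labelled conditional knockout (cKO; numbered 1, 2, 4 and 5) were Ptk7Xst87/flox, where Xst87 is a disrupted allele. All 8 also carried the T-Cre transgene, in which the brachyury (T) promoter drives Cre in mesodermal lineages, and the mT/mG membrane reporter, so the controls too have Cre and 1 floxed allele. Cells outside the T-Cre lineage keep their floxed allele. Ptk7 encodes a receptor-like protein of planar cell polarity. Whether each library is a different embryo or litter is not in the labels, so every p-value here refers to library-to-library spread, part of which may be technical.

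The mitochondrial genome is a small circle present in many copies per cell. Its protein-coding genes all encode subunits of the respiratory chain and ATP synthase, and all other subunits, together with every protein that transcribes, processes and translates mitochondrial RNA, are encoded in the nucleus. Both strands are transcribed as long precursors, and the tRNAs that lie between the mRNAs are cut out to release them. Most of the mature mRNAs are polyadenylated, whereas tRNAs are short, folded and modified, and standard mRNA libraries capture tRNAs poorly.

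Total counts ran from 24807970 to 29590547 per library. Ptk7 stood at 189, 112, 313 and 169 CPM (counts scaled to a common library size) in controls 1, 3, 4 and 6. It stood at 7.33, 7.59 and 12.5 CPM in cKO 1, 2 and 4, but at 194 CPM in the library labelled cKO 5, which is at the control level and goes against its label. Several group values are therefore also given without that library. Some are also given without control 3, the control with the highest mitochondrial share, so leaving it out must narrow the difference in that share. The duct epithelial markers were present, with Epcam at 270 ± 16.4 CPM (SD, n = 4) in controls and 238 ± 40.1 CPM (SD, n = 4) under the cKO label, and none of the 14 duct epithelial or 12 smooth muscle markers was at 0 in all libraries.

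Several of these genes share their sequence with a nuclear copy of mitochondrial DNA. On chromosome 1 of GRCm38, a stretch of 4663 bases (chr1:24611535-24616197, minus strand) holds 7 annotated pseudogenes in the same order as the mitochondrial genes they match. Their aligned bases, 4149 summed over the 7, lie within MT positions 6381 to 11042, a span of 4662 bases whose gaps between the pseudogenes were not compared. Over their whole length, 5 of the 7 are identical to the mitochondrial gene: Gm28661 to mt-Co2, Gm10925 to mt-Atp6, Gm28437 to mt-Co3, Gm10222 to mt-Nd4l, and Gm28439 to the first 876 bases of mt-Nd4. The other 2 differ at few bases. The starts of those 2 matches are shown because they hold every mismatch found, written 5′ to 3′ on the strand of the mitochondrial mRNA, with the differing bases in capitals (mt-Co1 at MT 6381 to 6440 beside Gm29216 at chr1:24616138-24616197, and mt-Nd3 at MT 9459 to 9518 beside Gm28438 at chr1:24613060-24613119).

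mt-Co1: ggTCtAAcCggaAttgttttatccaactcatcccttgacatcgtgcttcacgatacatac

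Gm29216: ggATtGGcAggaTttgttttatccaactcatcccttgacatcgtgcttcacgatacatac

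mt-Nd3: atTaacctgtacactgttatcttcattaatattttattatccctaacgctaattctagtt

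Gm28438: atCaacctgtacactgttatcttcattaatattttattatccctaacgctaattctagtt

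Counted from 1 at the start of each mitochondrial mRNA, with the mitochondrial base first, Gm29216 differs from mt-Co1 by T1056A, C1057T, A1059G, A1060G, C1062A and A1066T, an identity of 98.8% over bases 1054 to 1545. Gm28438 differs from mt-Nd3 by T3C only. Of all stretches of 100 bases in an mRNA, 99.5% in mt-Co2 and mt-Atp6, 99.9% in mt-Co3, 97.6% in mt-Nd3 and 98.5% in mt-Nd4l are found identically in another annotated transcript. The share is 60.8% in mt-Nd4, 30.8% in mt-Co1 and 3.19% in mt-Nd2, and 0 in mt-Nd1, mt-Nd5, mt-Nd6, mt-Cytb and both rRNAs. These shares depend on the length chosen. For stretches of 50 bases the share is 62.2% in mt-Nd4, 51.1% in mt-Co1 and 8.19% in mt-Nd2. It is then 7.61% in mt-Nd5 and 1.04% in mt-Rnr2, and still 0 in mt-Nd1, mt-Nd6, mt-Cytb and mt-Rnr1. The sources used here do not give how reads that match both places were counted.

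The 13 mRNAs fell into 2 ranges of level, a split that was noticed after the values were seen. Per length, 7 mRNAs (mt-Nd1, mt-Nd2, mt-Co1, mt-Nd4, mt-Nd5, mt-Nd6 and mt-Cytb) had mean levels of 1015 to 5403 CPM per kb over the 8 libraries. The 6 that lie wholly within the matched stretch (mt-Co2, mt-Atp8, mt-Atp6, mt-Co3, mt-Nd3 and mt-Nd4l) had 7.30 to 42.4 CPM per kb. The lowest of the first set was 23.9 times the highest of the second. These 6 mRNAs, which encode cytochrome oxidase, ATP synthase and complex I subunits, together held only 0.283% to 0.394% of the mitochondrial counts of a library.

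**Figure D1:**
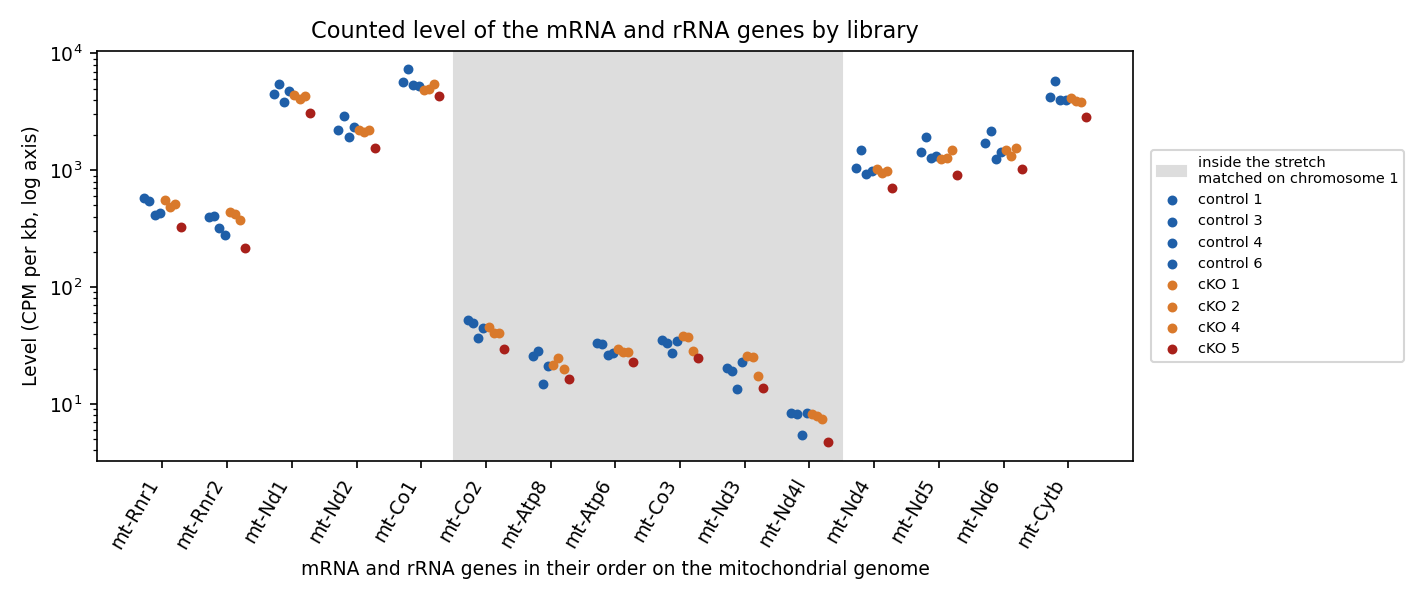
Level of the 13 mRNA and 2 rRNA genes in genome order (x axis) in CPM per kb on a log axis (y axis); each point is 1 library, drawn from left to right as controls 1, 3, 4 and 6 (blue), cKO 1, 2 and 4 (orange) and the library labelled cKO 5 (red), and the grey band marks the mRNAs inside the stretch matched on chromosome 1. The 6 mRNAs in the band lie at mean levels of 7.30 to 42.4 CPM per kb. The 7 mRNAs outside the band, of which mt-Co1 and mt-Nd4 are partly matched, lie at 1015 to 5403.

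The rows of the chromosome 1 pseudogenes held counts of the same order as the mitochondrial rows they match. Gm28661 had 0.785 to 0.924 counts for each count of mt-Co2 across the 8 libraries, and Gm10222 had 0.705 to 1.15 for each of mt-Nd4l. Gm28437 had 1.10 to 1.32 for each count of mt-Co3, and Gm10925 had 1.46 to 1.78 for each of mt-Atp6. Gm28438 had 3.02 to 3.99 for each count of mt-Nd3. By contrast, Gm29216 had at most 0.00193 counts per count of mt-Co1 and Gm28439 at most 0.00915 per count of mt-Nd4, both of which extend beyond the matched stretch. The levels of the 6 mRNAs inside it, and their shares of the total, are therefore uncertain, and the part that shared sequence plays in them was not tested. The levels of mt-Co1 and mt-Nd4, which are partly matched, are uncertain too. Per 1000 of their stretches of 100 bases without a match, mt-Co1 had 8347 CPM and mt-Nd4 had 2786 CPM, beside 5403 and 1015 CPM per kb of the whole gene.

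The case of mt-Atp8 stands apart, because no annotated copy of it was found and none of its stretches of 100 bases is shared. Between Gm10925 and Gm28661 lie 233 bases on chromosome 1 with no annotated gene, the same number as between the matched parts of mt-Co2 and mt-Atp6 on MT, where mt-Tk and most of mt-Atp8 lie. Its sequence (MT 7766 to 7969, 204 bases) is shown because its last 43 bases, in capitals, also begin mt-Atp6, so reads there belong to both genes.

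mt-Atp8: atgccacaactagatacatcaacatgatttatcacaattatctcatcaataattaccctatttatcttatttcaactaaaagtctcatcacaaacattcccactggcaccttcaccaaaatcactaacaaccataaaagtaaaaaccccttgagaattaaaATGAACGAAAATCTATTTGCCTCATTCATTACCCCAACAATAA

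With a mean of 21.5 CPM per kb, mt-Atp8 lay among the 6 low mRNAs. Its counts per 100 counts of mt-Atp6 ranged from 16.9 in control 4 to 26.7 in cKO 2. The chromosome 1 sequence of that gap was not used here.

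Mitochondrial genes took 2.64%, 3.47%, 2.40% and 2.51% of all counts in controls 1, 3, 4 and 6. Under the cKO label they took 2.45%, 2.37% and 2.55% in cKO 1, 2 and 4, and 1.82% in the library labelled cKO 5. The 95% Wilson intervals of these shares reach at most 0.00659 percentage points to either side, counting error only, so the spread between libraries is far above counting error. Control 3 is the highest, the library labelled cKO 5 is the lowest, and the other 6 libraries lie within 2.37% to 2.64%. The group means were 2.75% ± 0.486 (SD, n = 4) for controls and 2.30% ± 0.325 (SD, n = 4) under the cKO label, and the groups overlap. Without the library labelled cKO 5 the second mean was 2.45% ± 0.0927 (SD, n = 3). Leaving out control 3 as well gave 2.52% ± 0.123 (SD, n = 3) for controls, and the cKO mean was then lower by less than the SD of either group. Control 3 is the highest control and the library labelled cKO 5 the lowest of its group. Leaving them out therefore narrows the difference by construction and does not decide whether the groups differ. In bulk tissue, fewer cells rich in mitochondria and less mitochondrial RNA per cell cannot be told apart.

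**Figure D2:**
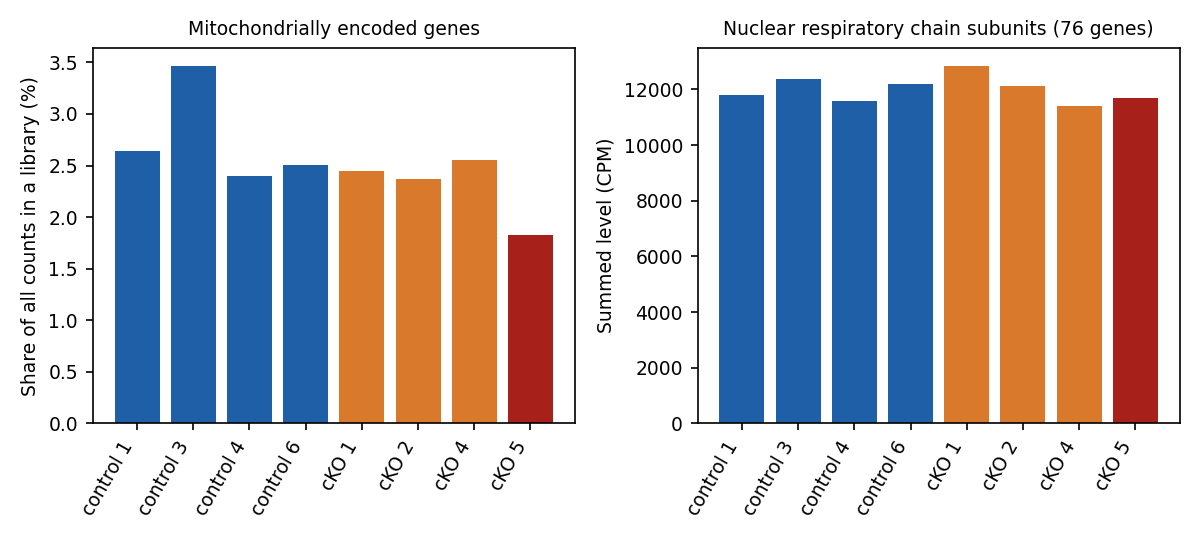
Share of all counts taken by the 37 mitochondrially encoded genes (left, %) and summed level of 76 nuclear genes for respiratory chain and ATP synthase subunits (right, CPM), with 1 bar per library: controls in blue, cKO 1, 2 and 4 in orange, and the library labelled cKO 5 in red. The mitochondrial share runs from 1.82% to 3.47%, whereas the highest nuclear sum is 1.13 times the lowest.

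Messenger RNAs made up 94.7% to 96.3% of the mitochondrial counts of a library, rRNAs 3.40% to 4.96% and tRNAs 0.192% to 0.364%. Most of them came from 3 genes: mt-Co1, the core subunit of cytochrome oxidase, mt-Cytb, the core of complex III, and mt-Nd1, a membrane subunit of complex I, together 66.8% to 70.1%. Alone, mt-Co1 held 30.5% to 36.2%. Mature mitochondrial rRNA is abundant in cells, so these shares are shares of sequenced counts and not of RNA molecules. The labels give how RNA was selected for sequencing only as the name of the library kit.

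No mitochondrially encoded gene was called between the cKO label and control at an adjusted p of 0.05 (edgeR quasi-likelihood test, Benjamini-Hochberg over 16469 genes; smallest adjusted p = 0.532), and neither was any other gene (0% of all genes tested; smallest adjusted p = 0.161). DESeq2 called 0 of the 22 (smallest adjusted p = 0.353), beside 1.2% of all genes it tested. At an unadjusted p of 0.05 in edgeR, 2 of the 22 were lower and 0 higher, beside 4.87% lower and 3.5% higher over all genes (8.37% in either direction). The groups did not overlap for 1 of the 22, which was lower, where 3.11% of all genes were lower and 2.65% higher without overlap (5.76% in all). Values were below 0 for 18 of the 22, with a median log2 fold change of -0.18, beside 48.6% of all genes and a median of 0.01. Without the library labelled cKO 5, 0 of 23 tested mitochondrial genes had an unadjusted p under 0.05 (8.74% of all genes), 0 were called (0.00599% of all genes), and the median was -0.07 with 14 of 23 below 0 (48.3% of all genes). Without control 3 the median was -0.10, and without both libraries it was 0.0057. These libraries have the highest and the lowest mitochondrial share, so the shift towards 0 largely follows from leaving them out.

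**Figure D3:**
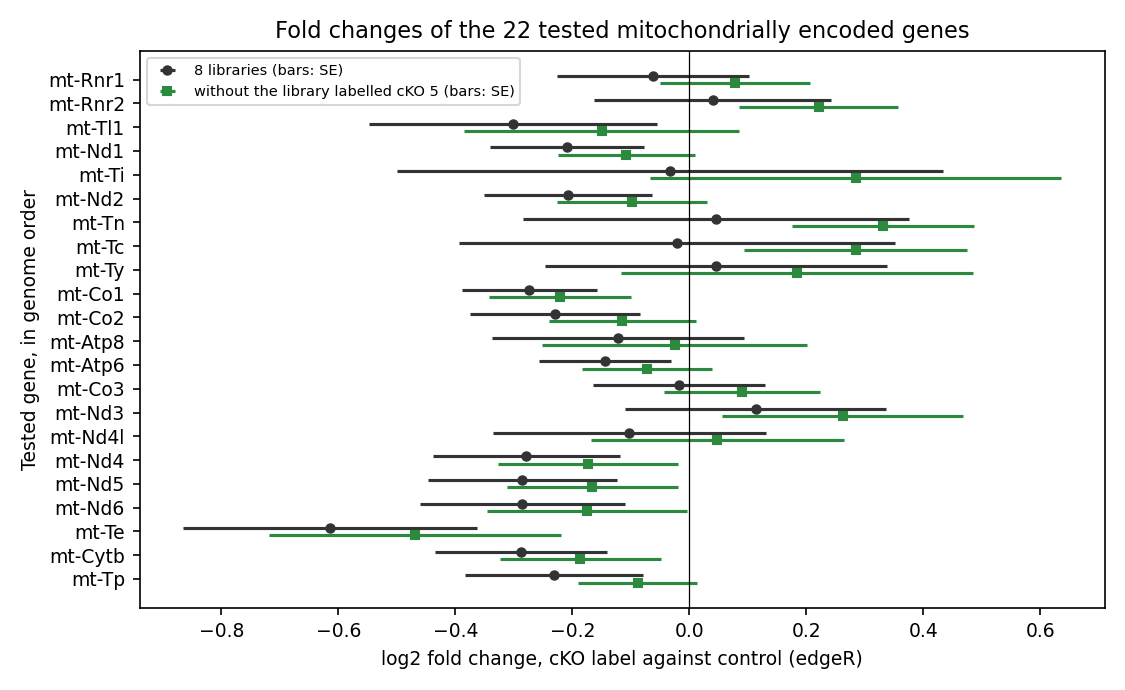
Log2 fold change of the 22 tested genes (x axis; bars show the SE) in genome order (y axis), over all 8 libraries (black circles) and without the library labelled cKO 5 (green squares). Over 8 libraries 18 of the 22 values lie below 0, and none of the 22 was called in either fit.

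Complex I is the entry point of electrons from NADH, and 7 of its subunits are mitochondrially encoded. Of these, mt-Nd1 had 4270, 5203, 3642 and 4540 CPM in controls 1, 3, 4 and 6, and 4237, 3908, 4144 and 2986 CPM in cKO 1, 2, 4 and 5. For mt-Nd2, the levels were 2311, 3006, 1989 and 2422 CPM in controls and 2294, 2213, 2310 and 1611 CPM under the cKO label. In both genes the highest library is control 3 and the lowest is the one labelled cKO 5, and the groups overlap. For mt-Nd4 the levels were 1443, 2053, 1288 and 1350 CPM in controls and 1415, 1315, 1351 and 976 CPM under the cKO label. For mt-Nd5, which encodes one of the proton-pumping subunits, they were 2638, 3505, 2320 and 2420 CPM in controls and 2267, 2304, 2706 and 1653 CPM under the cKO label. Both show the same high and low libraries. The log2 fold changes were -0.21 (SE 0.13) for mt-Nd1, -0.21 (SE 0.14) for mt-Nd2, -0.28 (SE 0.16) for mt-Nd4 and -0.29 (SE 0.16) for mt-Nd5, with adjusted p from 0.685 to 0.730 in edgeR. Without the library labelled cKO 5 they were -0.11 for mt-Nd1, -0.10 for mt-Nd2, -0.17 for mt-Nd4 and -0.17 for mt-Nd5. Without control 3 they were -0.12, -0.09, -0.11 and -0.14 in the same order. Leaving out both libraries, the log2 fold changes of the 7 mRNAs that do not lie wholly within the matched stretch lay between -0.10 and 0.03.

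The only mRNA listed on the other strand, mt-Nd6, had 887, 1122, 646 and 738 CPM in controls 1, 3, 4 and 6 and 768, 687, 801 and 529 CPM in cKO 1, 2, 4 and 5. Its log2 fold change was -0.29 (SE 0.17; edgeR, adjusted p = 0.695), -0.18 without the library labelled cKO 5 and -0.12 without control 3. Because it is transcribed from the other promoter system, its ratio to its neighbour mt-Cytb compares counts from the 2 strands within a library. Whether the libraries captured both mRNAs alike was not tested. There were 14.2 to 18.2 counts of mt-Nd6 per 100 of mt-Cytb, with 16.4 ± 1.67 (SD, n = 4) in controls and 16.5 ± 1.16 (SD, n = 4) under the cKO label. The log2 ratio differed by 0.01 between the groups (exact two-sided permutation test, p = 0.971; adjusted over 4 ratios, p = 0.971), where the smallest p that 4 against 4 allows is 0.0286. Because the strand setting of the counting is not given, reads of the precursor on the opposite strand cannot be told apart from mt-Nd6.

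The remaining complex I mRNAs, mt-Nd3 and mt-Nd4l, lie inside the matched stretch. In mt-Nd3, controls 1, 3, 4 and 6 had 7.11, 6.66, 4.70 and 7.87 CPM, and cKO 1, 2, 4 and 5 had 8.87, 8.78, 6.03 and 4.78 CPM, a log2 fold change of 0.11 (SE 0.22; edgeR, adjusted p = 0.904) and of 0.26 without the library labelled cKO 5. It was the only mRNA with a value above 0. In mt-Nd4l, which overlaps mt-Nd4 by 7 bases, levels ran from 1.39 CPM in the library labelled cKO 5 and 1.60 CPM in control 4 to 2.49 CPM in control 1, and its log2 ratio to mt-Nd4 differed by 0.15 (exact two-sided permutation test, p = 0.40; adjusted over 4 ratios, p = 0.914). With 34 to 73 counts of mt-Nd4l in a library, counting error is not small beside the spread.

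In complex III, mt-Cytb had 4860, 6641, 4543 and 4523 CPM in controls 1, 3, 4 and 6, and 4719, 4435, 4408 and 3286 CPM in cKO 1, 2, 4 and 5. Control 3 again is highest, and the groups overlap because cKO 1 lies above controls 4 and 6. Its log2 fold change was -0.29 (SE 0.15; edgeR, adjusted p = 0.645), -0.19 (SE 0.14; adjusted p = 0.729) without the library labelled cKO 5, and -0.14 without control 3.

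In complex IV, which reduces oxygen, mt-Co1 (ENSMUSG00000064351) had 8831, 11275, 8370 and 8074 CPM in controls 1, 3, 4 and 6. Under the cKO label it had 7494, 7639, 8398 and 6699 CPM. It had the highest level of the mitochondrial mRNAs in every library, also per kb, and only cKO 4 reached into the control range. Its log2 fold change was -0.27 (SE 0.12; edgeR, unadjusted p = 0.037, adjusted p = 0.554), one of the 2 members with an unadjusted p under 0.05. The log2 fold change of mt-Co1 was -0.22 (edgeR, SE 0.12, adjusted p = 0.644) without the library labelled cKO 5. Without control 3 it was -0.16 (SE 0.08, adjusted p = 0.771). The other catalytic subunits, both inside the matched stretch, had 20.04 to 35.9 CPM (mt-Co2) and 19.3 to 30.01 CPM (mt-Co3), with log2 fold changes of -0.23 (SE 0.15; edgeR, adjusted p = 0.705) and -0.02 (SE 0.15; adjusted p = 0.982). Without the library labelled cKO 5 they were -0.11 and 0.09.

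The membrane subunits of ATP synthase, mt-Atp6 and mt-Atp8, are read from overlapping frames of 1 mRNA. In mt-Atp6 the levels were 22.7, 22.1, 18.0 and 18.6 CPM in controls 1, 3, 4 and 6 and 20.1, 19.0, 18.9 and 15.6 CPM in cKO 1, 2, 4 and 5. For mt-Atp8 they were 5.26, 5.73, 3.03 and 4.30 CPM in controls and 4.37, 5.07, 4.05 and 3.31 CPM under the cKO label. The log2 fold changes were -0.14 (SE 0.11; edgeR, adjusted p = 0.754) and -0.12 (SE 0.21; adjusted p = 0.890). Without the library labelled cKO 5 they were -0.07 and -0.03. Their log2 ratio differed by 0.04 between the groups (exact two-sided permutation test, p = 0.886; adjusted over 4 ratios, p = 0.971).

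The 7 mRNAs that do not lie wholly within the matched stretch varied together from library to library (mt-Co1 and mt-Nd4 lie partly in it). All 7 were highest in control 3 and lowest in the library labelled cKO 5. Relative to each gene's mean over the libraries on the log2 scale, their median deviation was 0.53 in control 3 (range 0.35 to 0.58) and -0.49 in the library labelled cKO 5 (range -0.56 to -0.30), and between -0.09 and 0.08 in the other 6. Over all 22 tested members, 20 were lowest in the library labelled cKO 5, where 12.2% of all genes were lowest, and 11 were highest in control 3, beside 24.4% of all genes. The genes are made from shared precursors, so they are not independent of each other. The 6 mRNAs inside the stretch differed in their order: their median deviation was lowest in the library labelled cKO 5 (-0.43) and in control 4 (-0.32), and control 1 was highest (0.23).

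**Figure D4:**
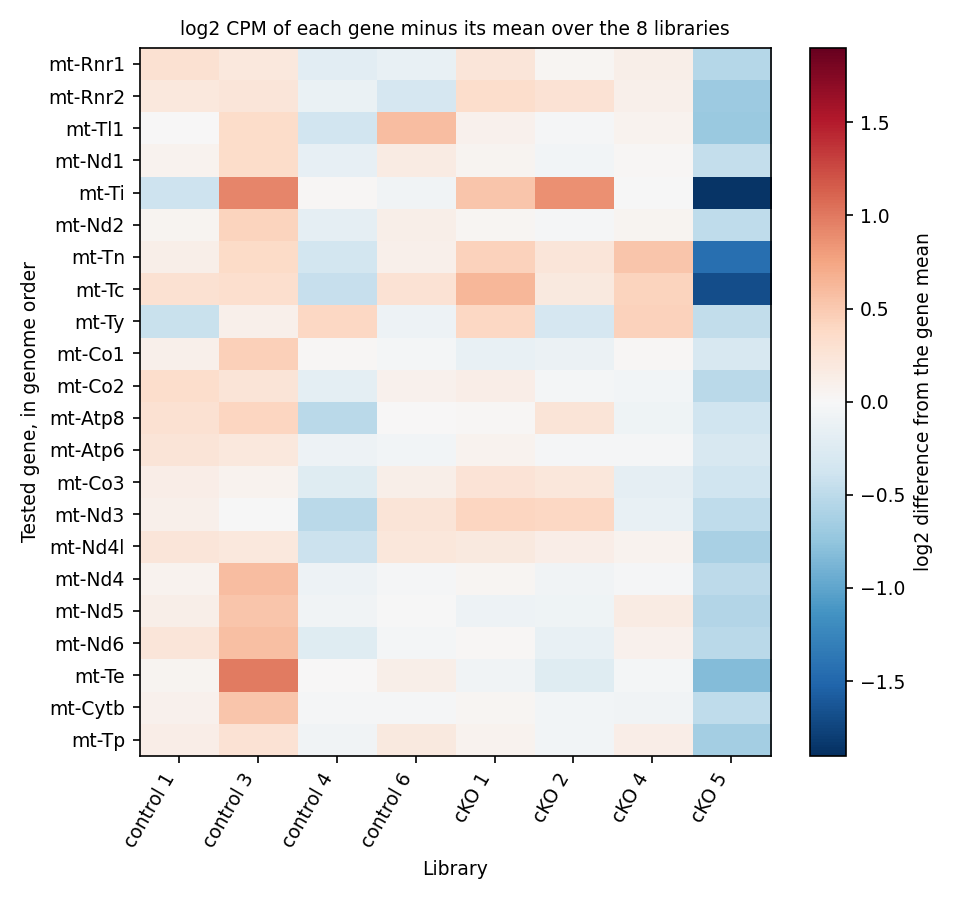
Log2 CPM of each tested gene minus its mean over the 8 libraries (colour, red above and blue below the mean), with genes in genome order in rows and libraries in columns. The column of control 3 is red for most mRNAs and the column labelled cKO 5 is blue for all 22 genes, darkest for mt-Ti, mt-Tn and mt-Tc.

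The profile among the 7 mRNAs was steadier than their level. Each gene's share of their summed counts varied across libraries with a coefficient of variation of 4.09% to 7.43%, whereas the coefficient of variation of their CPM was 15.8% to 23.0%. As a share of these counts, mt-Co1 held 34.9% ± 1.34 (SD, n = 4) in controls and 34.7% ± 2.29 (SD, n = 4) under the cKO label. The library labelled cKO 5 had the highest mt-Co1 share (37.8%) and the lowest mt-Nd5 share (9.32%). The next gene, mt-Cytb, held 19.6% ± 0.654 and 19.2% ± 0.980 (SD, n = 4 each), and mt-Nd1 held 16.9% ± 1.39 and 17.4% ± 0.611. For none of the 7 shares were the groups without overlap.

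**Figure D5:**
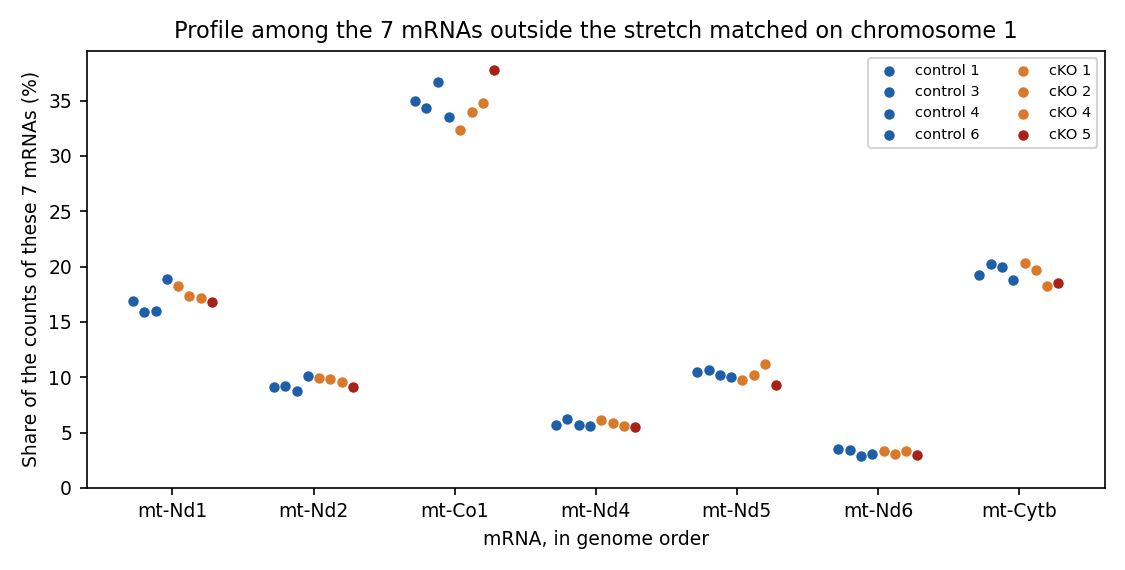
Share of the summed counts of the 7 mRNAs not wholly within the matched stretch held by each of them (y axis, %), with 1 point per library, drawn from left to right as controls 1, 3, 4 and 6 (blue), cKO 1, 2 and 4 (orange) and the library labelled cKO 5 (red). Of the 7, mt-Co1 and mt-Nd4 lie partly in that stretch. The share of mt-Co1 is the highest in every library, at 32.3% to 37.8%, and the groups overlap for all 7.

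The rRNAs form the core of the mitochondrial ribosome. The small-subunit rRNA mt-Rnr1 had 548, 520, 391 and 409 CPM in controls 1, 3, 4 and 6 and 527, 464, 488 and 311 CPM in cKO 1, 2, 4 and 5. The large-subunit rRNA mt-Rnr2 had 633, 645, 507 and 444 CPM in controls and 692, 666, 590 and 343 CPM under the cKO label. Neither was highest in control 3, unlike the 7 mRNAs, but both were lowest in the library labelled cKO 5. The log2 fold changes were -0.06 (SE 0.16; edgeR, adjusted p = 0.933) and 0.04 (SE 0.20; adjusted p = 0.969), and 0.08 and 0.22 (adjusted p = 0.877 and 0.679) without the library labelled cKO 5. The log2 ratio of mt-Rnr2 to mt-Rnr1 differed by 0.08 (exact two-sided permutation test, p = 0.457; adjusted over 4 ratios, p = 0.914).

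Counts of tRNAs were few and uneven. The 4 tRNAs with the most counts, those for asparagine (mt-Tn), proline (mt-Tp), cysteine (mt-Tc) and glutamate (mt-Te), held 92.1% of all tRNA counts. As with mt-Nd6, the strand setting is not given, so precursor reads of the opposite strand cannot be told apart from these tRNAs. The sequences of the 4 are given in the sense of the tRNA, 5′ to 3′, with the anticodon in capitals. They hold most tRNA counts, and all 4 are listed on the minus strand (MT 5089 to 5159, 15356 to 15422, 5192 to 5257 and 14071 to 14139).

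mt-Tn: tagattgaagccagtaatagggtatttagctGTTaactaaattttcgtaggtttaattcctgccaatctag

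mt-Tp: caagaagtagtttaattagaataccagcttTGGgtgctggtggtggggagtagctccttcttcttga

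mt-Tc: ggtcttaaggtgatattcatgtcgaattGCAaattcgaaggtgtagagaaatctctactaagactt

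mt-Te: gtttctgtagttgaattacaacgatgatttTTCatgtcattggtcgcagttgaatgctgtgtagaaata

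Of the 8 tRNAs on the minus strand, 5 passed the filter on low counts (the fifth is mt-Ty, tyrosine), and of the 14 on the plus strand 2 did, mt-Tl1 (leucine) and mt-Ti (isoleucine). Of the 15 that were not tested, none exceeded 11 counts in any library. There were 5 with 0 counts in every library (mt-Tf, mt-Td, mt-Tg, mt-Tr and mt-Ts2), which allows at most 3 counts, or 0.101 to 0.121 CPM, in a library. The 5 tRNAs inside the stretch matched on chromosome 1 had at most 2 counts in a library.

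For mt-Te the levels were 6.52, 12.5, 6.33 and 6.80 CPM in controls 1, 3, 4 and 6 and 5.99, 5.34, 6.15 and 3.56 CPM in cKO 1, 2, 4 and 5. It is the only tested member whose groups do not overlap, where 3.11% of all genes were lower without overlap. Control 3 is far above the rest, and the nearest libraries of the groups, control 4 and cKO 4, lie close together. The log2 fold change of mt-Te was -0.61 (edgeR, SE 0.25, unadjusted p = 0.033, adjusted p = 0.532). It was -0.47 (SE 0.25, adjusted p = 0.634) without the library labelled cKO 5 and -0.32 (SE 0.19, adjusted p = 0.839) without control 3. The gene lies directly beside mt-Nd6 on the same strand.

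For mt-Tn the levels were 24.5, 29.0, 17.6 and 24.2 CPM in controls 1, 3, 4 and 6 and 30.6, 26.6, 32.7 and 8.34 CPM in cKO 1, 2, 4 and 5. For mt-Tc they were 14.7, 14.8, 8.77 and 14.4 CPM in controls and 18.46, 13.6, 16.03 and 3.72 CPM under the cKO label. Both were lowest by far in the library labelled cKO 5, also against the mRNAs: it had 0.125 counts of mt-Tn and 0.0556 of mt-Tc per 100 counts of mt-Co1, where the other 7 libraries had 0.211 to 0.409 and 0.105 to 0.246. The log2 fold changes were 0.05 (SE 0.33) for mt-Tn and -0.02 (SE 0.37) for mt-Tc, and 0.33 (SE 0.16; edgeR, adjusted p = 0.586) and 0.28 (SE 0.19; adjusted p = 0.707) without that library. For mt-Tp the levels ran from 16.9 CPM in the library labelled cKO 5 to 31.8 CPM in control 3, with a log2 fold change of -0.23 (SE 0.15; edgeR, adjusted p = 0.714) and of -0.09 without the library labelled cKO 5.

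The summed level of the nuclear genes for respiratory chain and ATP synthase subunits varied less from library to library. A sum evens out the variation of single genes, and 1 of them, Ndufs5, ran from 7.26 CPM in control 3 to 17.7 CPM in cKO 1. The 76 nuclear genes for subunits of complexes I to V summed to 11993 ± 358 CPM (SD, n = 4) in controls and 12010 ± 636 CPM (SD, n = 4) under the cKO label. The highest of these sums was 1.13 times the lowest, beside 1.85 times for the summed 7 mitochondrial mRNAs. For each 100 CPM of the nuclear subunits there were 214, 265, 197 and 197 CPM of the 7 mitochondrial mRNAs in controls 1, 3, 4 and 6, and 180, 186, 212 and 152 CPM in cKO 1, 2, 4 and 5. Among the 76 genes, 0 had an unadjusted p under 0.05 in edgeR (3.5% of all genes higher and 4.87% lower), DESeq2 called 0, and 44 values lay above 0 and 32 below, with a median log2 fold change of 0.01.

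Of the proteins that act on mitochondrial DNA and RNA, the polymerase Polrmt had 21.9 ± 3.73 CPM in controls and 22.4 ± 1.86 under the cKO label (SD, n = 4 each). The packaging and transcription factor Tfam had 66.1 ± 4.70 and 65.1 ± 2.53 CPM. The complex that stabilises mitochondrial mRNAs had 67.5 ± 5.52 and 66.4 ± 9.80 CPM of Lrpprc and 35.2 ± 2.77 and 35.9 ± 4.19 CPM of Slirp. None of these 4 differed beyond the spread between libraries (edgeR, adjusted p from 0.940 to 0.962). Lrpprc stood at 81.1 CPM in the library labelled cKO 5, beside 61.0, 61.2 and 62.4 CPM in cKO 1, 2 and 4. Its log2 fold change was -0.02 over 8 libraries and -0.13 (edgeR, adjusted p = 0.670) without that library. Without it, Polrmt had -0.02, Tfam -0.02 and Slirp 0.05. Among 17 genes for mitochondrial DNA upkeep and transcription, and 77 tested genes for mitochondrial ribosomal proteins, 0 had an unadjusted p under 0.05. In edgeR, 8.37% of all genes had such a p in either direction, so 0 of 17 says little by itself.

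Among 25 genes for the processing and stability of mitochondrial RNA, 3 were lower at an unadjusted p of 0.05 and 0 higher, and the groups of these 3 did not overlap. Over all genes 4.87% were lower and 3.5% higher at that p, and 3.11% were lower without overlap. A protein subunit of the mitochondrial RNase P, which cuts tRNAs at their 5′ end, is encoded by 1110008L16Rik (now Prorp). This gene had 16.6 ± 1.87 CPM in controls and 13.2 ± 0.847 under the cKO label (SD, n = 4 each). Its log2 fold change was -0.32 with an SE of 0.10 (edgeR, unadjusted p = 0.010, adjusted p = 0.386). Fastkd2, which binds mitochondrial rRNA, had 18.9 ± 1.81 and 15.9 ± 1.05 CPM (edgeR, adjusted p = 0.512). Pnpt1, which degrades mitochondrial RNA, had 31.5 ± 1.84 and 28.1 ± 0.681 CPM (edgeR, adjusted p = 0.591) and was named after its values were seen. In these 3 genes the library labelled cKO 5 lies with the other cKO libraries.

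Of 10 regulators of mitochondrial biogenesis, 2 were lower at an unadjusted p of 0.05 and 0 higher, against the same shares over all genes. The orphan receptor Esrrg had 9.11 ± 1.19 CPM in controls and 6.60 ± 0.939 under the cKO label, with no overlap (SD, n = 4 each). The Esrrg difference on the log2 scale was -0.47 (SE 0.14), with an adjusted p = 0.358 in edgeR. The GABP subunit Gabpb1 had 37.8 ± 1.97 and 33.7 ± 1.53 CPM (edgeR, adjusted p = 0.586). The coactivator Ppargc1a had 4.65 ± 0.411 and 3.57 ± 0.811 CPM (edgeR, adjusted p = 0.624). Of 20 genes that track mitochondrial mass, 0 had an unadjusted p under 0.05, among them the matrix enzyme Cs, with 177 ± 19.0 and 167 ± 8.99 CPM, and the outer membrane channel Vdac1, with 348 ± 33.7 and 339 ± 20.0 CPM. Of 15 tested genes of the mitochondrial stress response, Ddit3 was higher and Psat1, Mthfd2, Gdf15 and Sesn2 were lower at an unadjusted p of 0.05, with adjusted p from 0.420 to 0.596 in edgeR. Over these nuclear lists together, 1 of 240 tested genes was higher and 9 were lower at an unadjusted p of 0.05, both smaller shares than the 3.5% and 4.87% of all genes. The 9 lie in the RNA processing (3 of 25), biogenesis (2 of 10) and stress response (4 of 15) lists, and the 1 higher in the last. In each of these lists the lower share is above 4.87%, with no test of the lists.

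Markers of other cells moved with the library labelled cKO 5, with the cKO label or with control 3. The 11 erythroid markers found, of 12 listed, summed to 3966 CPM in the library labelled cKO 5, to 795 to 2268 CPM in controls and to 1362 to 1534 CPM in the other cKO libraries, and none was at 0 in all libraries. Globin genes took 0.384% of counts in that library and 0.0782% to 0.224% in the others. Leaving globins out of the total, the mitochondrial share was 1.83% there and 2.37% to 3.47% elsewhere. Globins are too small a part of the counts for this step to change the share much. The part of red cells in the low share was therefore not tested.

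With the cKO label, the smooth muscle markers summed to 3415 to 4250 CPM, beside 4286 to 5121 CPM in controls, without overlap. At an unadjusted p of 0.05 in edgeR, 7 of the 12 were lower and 1 higher, and DESeq2 called 0. Over all genes, 4.87% were lower and 3.5% higher at that p. Of the 14 duct epithelial markers, 8 were lower and 1 higher at that p, with a median log2 fold change of -0.32, and DESeq2 called 4 lower, where it called 1.2% of all genes. Their sums overlapped, at 1202 to 1372 CPM in controls and 1026 to 1431 CPM under the cKO label. The mesothelial markers summed to 470 to 564 CPM in controls and 603 to 773 CPM under the cKO label, without overlap. At the same unadjusted p, 4 of the 6 tested were higher and 0 lower, and DESeq2 called 3 higher. Of 10 tested neuron and Schwann cell markers, 3 were higher and 0 lower at that p, and DESeq2 called 1 higher. Their log2 fold changes lay above 0 for 8 of the 10 (median 0.37). The sums were 91.2 to 110 CPM in controls and 104 to 154 CPM under the cKO label.

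Control 3 lay within the range of the other controls in its erythroid (1161 CPM), duct epithelial (1240 CPM), smooth muscle (4762 CPM), mesothelial (509 CPM) and neuron and Schwann cell (92.1 CPM) sums. It was the lowest control in the sums of macrophage (178 CPM), endothelial (422 CPM), striated muscle (9.69 CPM) and adipocyte markers (13.4 CPM). The part of these cell types in the mitochondrial values was not tested.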

How the data were processed

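Total RNA of epididymal ducts was sequenced in 8 libraries. The labels' protocols name RNeasy Plus Mini columns for RNA, a TruSeq RNA kit for libraries and an Illumina HiSeq instrument. The submitters' processing notes name STAR, featureCounts and GRCm38. The sources used here do not give their versions, the annotation release, the strand setting or how multiply matching reads were treated.

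Raw counts for each gene were deposited by the authors, 1 column per library, with no normalization, and the summed exon length per gene, which was used for CPM per kb and in no test. Symbols were matched by Ensembl identifier for 46005 of 46517 genes. The members were all rows on MT. Members and gene lists were chosen with earlier results of these data known.

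The edgeR 4.0.16 fit (R 4.3.3) used TMM factors, filterByExpr (16469 genes kept) and a quasi-likelihood test between the groups in all 8 libraries. P-values were adjusted by Benjamini-Hochberg over all genes, with a threshold of 0.05. CPM uses the same TMM factors. The SE is approximate, derived from the log2 fold change and its F statistic. The biological coefficient of variation was 15.2%. DESeq2 1.42.0 was an alternative, and both were tested on simulated data. Counts of 4 gene pairs were compared as log2 ratios by exact permutation. Shares and medians over members are descriptions with no test. Total counts of 24807970 to 29590547 leave little counting error beside the spread between libraries, except for tRNAs and the mRNAs with few counts (34 to 73 for mt-Nd4l, 81 to 172 for mt-Atp8).

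Identity was computed from GENCODE M21 transcripts (GRCm38) with blastn 2.17.0, as exact runs of 100 bases, and also of 50, shared with other annotated transcripts. Genome sequence outside annotated transcripts was not used.

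The rule for named genes took all members, Ptk7, 7 set nuclear genes, the 2 members of each nuclear list with the smallest p and the most abundant member of each marker list, and those a result turns on are printed. Alternatives were DESeq2 size factors, upper-quartile factors, library sizes without MT genes and globins, no filter, DESeq2, a block on the library number, other denominators of the share, and leaving out each library. Those added after seeing the data were edgeR without cKO 5 and control 3, DESeq2 without cKO 5, and the block's 4 libraries without the block. Figures were drawn with matplotlib 3.10.9.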

Additional observations from a re-analysis of the deposited data

Results flagged for a closer look

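Of 60 groups of 4 libraries examined (levels of the 22 tested genes, 4 shares and 4 ratios), 6 had a lowest or highest library set apart from its group, where chance gives about 1 in 20. In the library labelled cKO 5, mt-Nd2 stood at 1611 CPM, below 2213 to 2310 CPM in cKO 1, 2 and 4. In control 3, mt-Cytb stood at 6641 CPM, above 4523 to 4860 CPM in the other controls, and mt-Te at 12.52 CPM, above 6.333 to 6.802 CPM. In control 4, mt-Tc stood at 8.769 CPM, below 14.41 to 14.85 CPM in the other controls, and mt-Nd4l at 1.601 CPM, below 2.43 to 2.49 CPM. In cKO 2, the log2 ratio of mt-Atp8 to mt-Atp6 was -1.908, above -2.234 to -2.201 in the other libraries with the cKO label.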

How the results depend on the processing

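No mitochondrially encoded gene was called under any alternative run. Over all genes, edgeR called 0, and 1 with no filter, 3 without cKO 5 and control 3, 7 with the replicate block, 4 over the block's 4 libraries without it, and 0 to 2 when each library was left out (1 without the library labelled cKO 5, 2 without control 1). DESeq2 called 186, and 183 without cKO 5. The median log2 fold change of the members was -0.1755, -0.2932 to -0.07235 when each library was left out, and 0.005727 without cKO 5 and control 3. The log2 difference in mitochondrial share was -0.2589, -0.3204 to -0.143 when each library was left out, and -0.03587 without those 2 libraries. They hold the lowest and the highest share, so leaving them out must narrow that difference.

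Control and cKO libraries share only the numbers 1 and 4, so the replicate block holds 4 libraries and neither control 3 nor cKO 5. Across genes, the deviations of same-numbered libraries correlated at -0.09 for number 1 and 0.02 for number 4. Differently numbered pairs were not compared, so these values do not settle whether a shared number means a shared litter or batch. With the block the median was 0.09547, and over the same 4 libraries without it 0.09984. Values that changed sign in the block fit were 0.1321 for mt-Rnr1, 0.2539 for mt-Tl1, 0.08852 for mt-Nd1, 0.4365 for mt-Ti, 0.1037 for mt-Nd2, 0.5969 for mt-Tc, 0.06901 for mt-Atp8, 0.09547 for mt-Co3, 0.2066 for mt-Nd4l, 0.02116 for mt-Nd4, 0.002836 for mt-Nd5, 0.05131 for mt-Nd6, 0.06593 for mt-Tp, -0.2043 for Polrmt, 0.0644 for Tfam and 0.02882 for Vdac1. None of these was called in either fit.

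Values whose sign changed when a library was left out ranged from -0.1495 to 0.07807 for mt-Rnr1, -0.06382 to 0.2208 for mt-Rnr2, -0.3567 to 0.3149 for mt-Ti, -0.1223 to 0.3307 for mt-Tn, -0.2401 to 0.2842 for mt-Tc, -0.09981 to 0.1888 for mt-Ty, -0.2798 to 0.006523 for mt-Atp8, -0.1136 to 0.08978 for mt-Co3, -0.02036 to 0.2622 for mt-Nd3, -0.2373 to 0.0476 for mt-Nd4l, -0.05877 to 0.1055 for Polrmt, -0.05185 to 0.02802 for Tfam, -0.1342 to 0.02986 for Lrpprc, -0.04947 to 0.08594 for Slirp and -0.07545 to 0.03225 for Vdac1. The log2 ratio differences ranged from -0.05652 to 0.06302 for mt-Nd6 to mt-Cytb and -0.08326 to 0.124 for mt-Atp8 to mt-Atp6. With 3 against 4 libraries their exact test cannot pass 0.05. Ptk7 was called without the library labelled cKO 5 (-4.418) and with the block (-4.665). The signs of all members tested were kept under the other size factors, library sizes, filter and DESeq2.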
